A study of Papio hamadryas with 17 samples.

Results

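The nuclear-encoded subunits of the mitochondrial respiratory chain and ATP synthase were described in kidney cortex biopsies of baboons. Members were the genes whose symbol begins with NDUFA, NDUFB, NDUFC, NDUFS or NDUFV, the genes SDHA to SDHD, and those beginning with UQCR, COX4I, COX5, COX6, COX7, COX8 or ATP5, with the NDUFAF assembly factors left out. The rule found 59 of the 13850 genes in the table of the females: 38 of complex I, 3 of complex II, 2 of complex IV and 16 of complex V. No UQCR symbol was listed, and neither was SDHD. Most subunits of complexes III and IV stood under locus identifiers with a product name, so 21 such loci, 9 of complex III and 12 of complex IV, were added after the tables had been seen and are named here by the subunit in that product name. A further 26 loci with product names of subunits were not used. Among them were pseudogenes, further copies of subunits held by symbol, and loci with the SDHD product, so complex II is described without SDHD.

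Libraries of stranded mRNA came from 17 animals on a low-salt control chow, with no treatment, sampled by needle biopsy under ultrasound. There were 8 females with listed ages of 15 to 19 and 9 males of 6 to 13 (the labels give no unit), and each animal gave 1 library. Every female was listed as older than every male, the females had a library name series of their own, and the males fell into a series of 5 libraries (males 1 to 5, series A) and a series of 4 (males 6 to 9, series B). Sex, age and name series therefore cannot be told apart.

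Values are signal, the deposited abundance per transcript after an offset of 1 was taken off, summed per gene. The labels state neither a read total nor a transcript length, so levels are compared between libraries and not between genes. The table of the males was held in part. It ended part-way through the last of the authors' co-expression modules, so the genes held for both sexes are not a random part of all genes. Shares of all genes given over both sexes are shares of those held. For males, that left 19 of the 59 genes with all their transcripts, namely the 16 genes of complex V, SDHC, COX5A and COX8A. A further 5 genes were present only through a minor transcript, and 35 were held for females alone. Of the added loci, COX6A1 and COX7A2 were among those also whole for males.

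Females 1 and 2 and male 6 stood apart from their tissue label. Over 6 skeletal muscle markers held in both tables (ACTA1, CKM, ACTN3, CASQ1, ENO3 and DES), their summed signal was 75988 to 144488, against 7.10 to 32.6 in the other 6 females and 9.70 to 30.7 in the other 8 males. Over 15 proximal tubule markers it was 348 to 719, against 1020 to 5824 and 5456 to 11883. Other cell types moved too. Over 3 adipose markers it was 196 to 368, against at most 3.44 in the other 14, and over 6 stroma markers it was 1050 to 3831, against at most 602. The part of each of these cell types in the differences below was not tested. These 3 libraries are called muscle-rich. Because measured genes set them apart, they are described beside the other 14 and not tested against them, and fewer cells of a type and less RNA per cell cannot be told apart in such tissue.

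The respiratory chain passes electrons from NADH (complex I) and succinate (complex II) through complex III and cytochrome c to oxygen at complex IV. Complexes I, III and IV pump protons out of the matrix, and complex V, the ATP synthase, uses their return to make ATP. A small set of subunits is encoded by mitochondrial DNA, and the nuclear genome encodes the others, some of them as paralogues with a form typical of heart and skeletal muscle. Kidney tubules rely on this pathway to drive sodium transport, with the proximal tubule among the tissues richest in mitochondria.

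The gamma subunit of the ATP synthase rotor, ATP5C1, was listed as transcript variants X1 and X2, and the libraries separated fully by which of them they held. Variant X1 had a signal of 7.23 in female 1, 7.12 in female 2 and 4.66 in male 6, whereas it was 39.2 to 134.7 in the other 14 libraries. Variant X2 had a signal of 152 in female 1, 190 in female 2 and 129 in male 6, against 0.435 to 5.88 in the other 14. Variant X2 thus made up 95.5%, 96.4% and 96.5% of the gene's signal in the muscle-rich libraries, and between 0.506% and 7.12%, with a median of 3.82%, in the others. No library lay between these ranges, and the share does not depend on scaling between libraries. The gene is known from other mammals to be spliced differently in muscle. Which exons distinguish X1 from X2 was not part of the tables. The authors' deposited tables placed the variants in separate co-expression modules, X1 in grey60 and X2 in blue for females, and X1 in blue and X2 in turquoise for males.

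**Figure D1:**
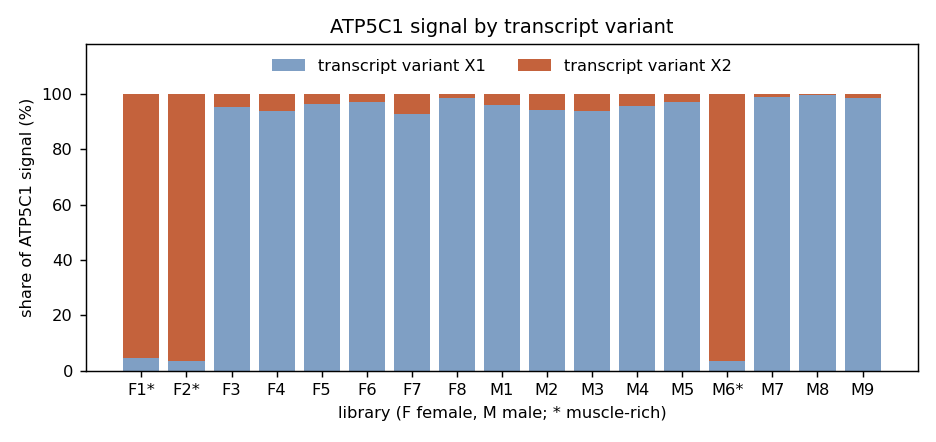
Share of ATP5C1 signal (percent, vertical axis) taken by transcript variants X1 and X2 in each of the 17 libraries (horizontal axis; asterisks mark the muscle-rich libraries). X2 takes 95.5% to 96.5% in females 1 and 2 and male 6 and at most 7.12% elsewhere.

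Of the 59 members, 19 had at least 2 listed transcripts, and 3 had a transcript whose share in every muscle-rich library measured lay outside the range of the rest with a mean difference of at least 20 percentage points. ATP5F1, the b subunit of the peripheral stalk, had its variant X2 at 97.4%, 94.9% and 90.8% in females 1 and 2 and male 6, against 44.6% to 85.0% in the other 14. The ranges of ATP5F1 approached each other more closely than those of ATP5C1. A further locus with the product name of the b subunit was listed and not used. NDUFS1, the largest iron-sulphur subunit of complex I, could be read in females alone. Its variant X1 took 81.3% and 79.5% of the signal in females 1 and 2, against 10.3% to 56.7% in the other 6. Among the added loci, UQCRQ, a small subunit of complex III, passed the same rule with its variant X1 at 54.3% and 52.5%, against 63.7% to 81.4%.

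The paralogues of cytochrome c oxidase (complex IV) differed as sharply. COX6A2 encodes the heart and muscle form of subunit VIa and COX6A1 the form of other tissues. COX6A2 had a signal of 410.6 in female 1 and 533.8 in female 2, was listed at 0 in females 4, 6, 7 and 8, and was 0.0562 in female 3 and 0.0946 in female 5. COX6A1 ran the other way, with 14.4 and 11.3 in females 1 and 2 against 51.3, 73.2 and 92.1 as the lowest, median and highest of the other 6. COX6A2 therefore made up 96.6% and 97.9% of the pair in the muscle-rich females and at most 0.184% in the others. In the males only COX6A1 was held. It was 21.6 in male 6, below all of the other 8 males, which lay between 67.6 and 128.9.

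COX7A1, the muscle form of subunit VIIa, differed in degree rather than in presence. Its signal was 245 and 416 in females 1 and 2 and 23.9 to 48.4 in the other 6 females, all of which had it. COX7A2, the form of other tissues, was 18.2 and 13.8, against 31.4 to 59.1. COX7A1 took 93.1% and 96.8% of the pair in females 1 and 2, and 39.9% to 50.9% in the others. Male 6 had 23.2 of COX7A2, below the other 8 males at 32.8 to 70.5.

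The other pairs showed no such exchange. COX4I2, a form of subunit IV known for lung and for low oxygen, took 0.986% and 1.03% of its pair with COX4I1 in females 1 and 2, within the 0.849% to 2.04% of the other 6. NDUFA4L2 took 2.49% and 1.55% of its pair with NDUFA4, against a range from 0 to 1.94%. NDUFA4 carries a complex I name and is now counted with complex IV. Its signal was 204 and 320 in females 1 and 2, against 46.5 to 89.8.

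**Figure D2:**
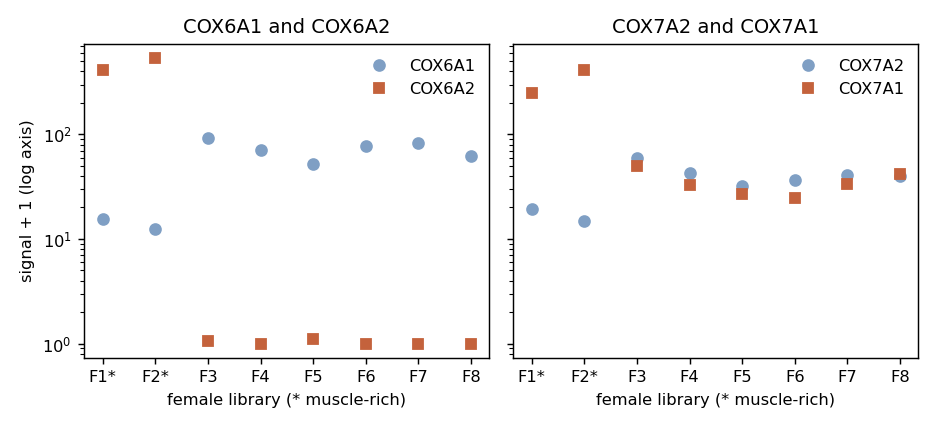
Signal plus 1 (log axis) of COX6A1 and COX6A2 (left) and of COX7A2 and COX7A1 (right) in the 8 female libraries (asterisks mark the muscle-rich ones). COX6A2 is at 410.6 and 533.8 in females 1 and 2 and below 0.1 in the others, while COX7A1 is present in all 8.

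On the deposited scale, the subunits as a whole stood higher in the muscle-rich libraries, but this direction depended on the scale. All 59 members had a higher signal in both females 1 and 2 than in any of the other 6 females, and so did 44.4% of the 12867 genes that reached a signal of 1 in 4 or more females; 58 of the 59 members met that minimum, with ATP5S below it. The summed signal of the 59 genes was 7876 and 10968 in females 1 and 2, and 2362 to 3724 in the others. As a share of all nuclear signal in the library it was 0.788% and 0.877%, against a lowest, median and highest of 0.803%, 0.914% and 1.19%. The share in female 1 was thus just below that of every other female and the share in female 2 was within their range. The total signal per library was itself 1105380 and 1424870 in the muscle-rich females and 388512 to 474617 in the others.

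Ratios are therefore given as log2(signal + 1) relative to the median of the other 6 females, minus the same for all genes, whose median was 0.49 in female 1 and 0.43 in female 2. The median was 1.11 and 1.52 for complex I, 1.20 and 1.51 for complex II, 1.21 and 1.94 for complex III, 0.26 and 0.91 for complex IV, and 0.72 and 1.23 for complex V. Scaled instead to the summed nuclear signal of the female table, to which abundant muscle transcripts also contribute, and without subtracting all genes, the medians were -0.08 and -0.01 for complex I, -0.03 and -0.10 for complex II, 0.00 and 0.35 for complex III, -0.92 and -0.66 for complex IV, and -0.49 and -0.32 for complex V. The medians of complexes III and IV rest on the loci added by product name. The 0.26 of complex IV in female 1 was the value of COX7A2L, a locus whose product is named as related to subunit 7A. NDUFA4, at 1.32 and 2.02, was grouped by its symbol with complex I. COX6A2 did not meet the minimum, and with it included the median of complex IV relative to all genes was 0.37 and 0.98. COX5A and COX8A alone, the complex IV genes found by the rule, had 0.74 and 1.32. The difference between complexes was not tested.

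Within complex I all 38 genes were higher in females 1 and 2 on the deposited scale. NDUFS1 had a signal of 136 and 175, against 11.5 to 32.2 in the other 6 females. NDUFV2, an iron-sulphur subunit of the NADH-binding arm, had 132 and 154, against 21.4 to 33.6. Both subunits carried wide gaps between the muscle-rich and the other females. At the other end, NDUFB8 of the membrane arm had 96.8 and 115, against 58.4 to 96.1, and NDUFA11 had 85.2 and 103, against 39.8 to 65.1. The ratio of NDUFB8 relative to all genes was -0.11 in female 1 and 0.19 in female 2. Before all genes were subtracted, 25 members exceeded a 4-fold ratio in female 2, beside 13.4% of all genes, among them NDUFA1, NDUFA4, NDUFA5, NDUFA9, NDUFA12, NDUFB2, NDUFB5, NDUFB6, NDUFB9, NDUFB11, NDUFC2, NDUFS3, NDUFS4, NDUFS7 and NDUFV3. In female 1, 7 did, beside 12.2% of all genes.

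In complex II, SDHA, the flavoprotein that oxidises succinate, had a signal of 98.2 and 161 in females 1 and 2, against 9.01 to 35.4. SDHB, its iron-sulphur partner, had 147 and 175, against 37.1 to 53.4. SDHC, a membrane anchor, had 117 and 119 in females 1 and 2 and 103 in male 6, and the last value lay within the 78.9 to 136 of the other males. In complex III, UQCRC2, a core protein, had 339 and 441, against 50.3 to 117.6, and UQCRQ had 179 and 186, against 22.8 to 37.1. The lowest ratios there were those of UQCRH, at 62.9 and 76.9 against 15.0 to 43.7, and of UQCR10, at 4.30 and 7.36 against 1.29 to 2.77. In complex IV, COX5A had 195 and 283 in females 1 and 2 and 222 in male 6, against 36.6 to 96.4 in the other 14.

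**Figure D3:**
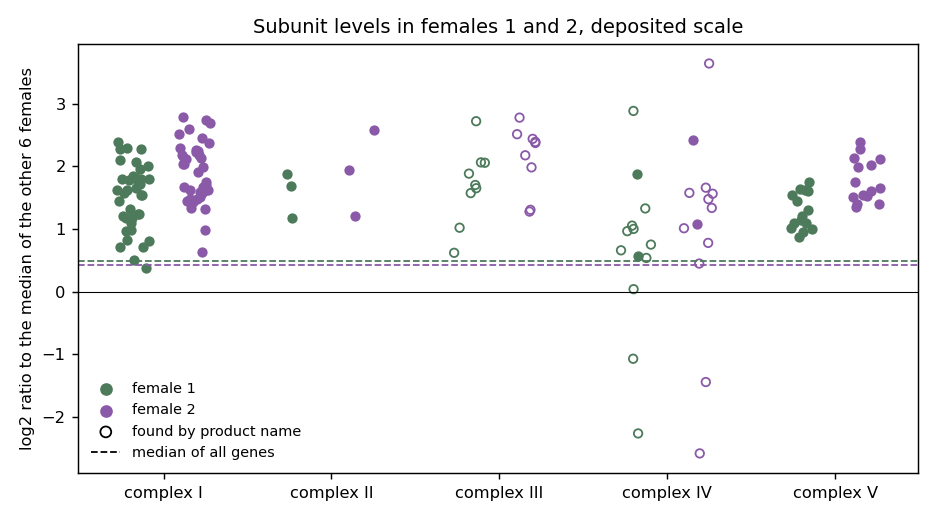
Log2 ratio of each gene's signal plus 1 in female 1 (green) and female 2 (purple) to the median of the other 6 females, by complex; open circles are loci found by product name and dashed lines the medians of all genes (0.49 and 0.43). Points of complexes I, II, III and V lie above 0, while COX6A1 and COX7A2 of complex IV lie below it.

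Complex V could be followed in all 3 muscle-rich libraries. ATP5A1, the alpha subunit of the catalytic head, had a signal of 828 and 1095 in females 1 and 2 and 744 in male 6, against 198 to 495 in the other 14. ATP5D, the delta subunit of the rotor, had 228, 325 and 242, against 47.1 to 113. ATP5G2, which encodes the proton-carrying subunit c, had 192, 349 and 244, against 54.5 to 92.9. Of the 19 genes whole in both tables, 15 were higher in all 3 muscle-rich libraries than in any of the 14, as were 14.9% of the 9414 genes tested. The exceptions were ATP5C1, ATP5G3, SDHC and COX8A. The 9414 genes lack the part of a module not held for males, so 14.9% is a limited background for this count. Over the 12867 genes of the female table, 44.4% were higher in both females 1 and 2 than in the other 6 females. That comparison has no males, and the part of the missing genes in the lower share was not tested. ATP5G3 had 132, 176 and 129, and the highest of the other 14 was 134. ATP5J had 70.0, 99.4 and 72.5, against 29.1 to 60.2. Relative to all genes, the median ratio of complex V in male 6 to the other 14 was 1.63. On the same basis it was 1.17 in female 1 and 1.70 in female 2. The all-gene median subtracted here was -0.35 in male 6, -0.12 in female 1 and -0.25 in female 2. In the female table it was 0.49 and 0.43 in females 1 and 2, so the values relative to all genes are not comparable between the 2 sets of genes. Before subtraction, complex V had 1.27 in male 6, 1.05 in female 1 and 1.45 in female 2. When the nuclear total was taken over the genes in both tables and the ratio to the other 14, the median of complex V was -0.00427 in female 1, 0.14 in female 2 and 0.35 in male 6. As a share of that total complex V took 0.764%, 0.931% and 0.940%, against 0.596% to 0.912%. Beside the values scaled to the nuclear total of the female table, complex V thus changed sign in female 2. In female 1 it was negative in both, though barely so here. The reference also changed, from the other 6 females to the other 14 libraries, and the part of each change was not tested.

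Other lists of mitochondrial genes give the setting in the same females. All 13 subunits encoded by mitochondrial DNA were held, and 0 of them were higher in both females 1 and 2 than in all others. Their median log2 ratio was -0.19 in female 1 and 0.84 in female 2 before all genes were subtracted, and -0.68 and 0.41 relative to all genes. Of 14 genes of the tricarboxylic acid cycle 13 were higher in both, as were 17 of 25 assembly factors and 13 of 16 electron carriers and adenine nucleotide exchangers, against the background of 44.4%.

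Subunit c is made from ATP5G1, ATP5G2 and ATP5G3, which encode the same mature protein behind different targeting sequences. In the muscle-rich libraries ATP5G2 took 47.1%, 52.7% and 49.0% of the summed signal of the 3 genes in females 1 and 2 and male 6, above the 26.6% to 44.1% of the other 14. ATP5G3 took 32.3%, 26.6% and 25.9%, below the 34.9% to 51.7% of the others.

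In the 14 other libraries the share of ATP5G2 in females was 40.4% ± 2.36 (SD, n = 6), whereas males had 32.2% ± 3.49 (SD, n = 8). It was 38.1% to 44.1% in females and 26.6% to 38.9% in males, with the highest male, male 8, above the lowest females. The means differed by 8.17 percentage points (exact permutation test, two-sided, p = 0.00200, Benjamini-Hochberg adjusted over the 3 shares p = 0.00300). ATP5G3 in females took 38.8% ± 2.75 (SD, n = 6), and males had 47.4% ± 3.17 (SD, n = 8). Its share was lower in females by 8.68 points (two-sided exact permutation test, p = 0.00133, adjusted p = 0.00300), with ranges of 34.9% to 42.8% and 41.8% to 51.7%. ATP5G1 took 20.9% ± 1.59 and 20.4% ± 2.15 and did not pass (two-sided exact permutation test, adjusted p = 0.641). The 3 shares sum to a whole and so are not independent.

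Against series A males alone the difference of ATP5G2 was 8.19 points and that of ATP5G3 -8.46, without overlap of the sexes (exact permutation test, adjusted p = 0.00649 for both). Against the 3 remaining series B males they were 8.13 and -9.05 points and did not pass the threshold (exact permutation test, adjusted p = 0.107 for both). Another locus with a product name of the ATP5G2 protein was listed and not used, and reads shared between such near-identical copies make the split between the genes uncertain.

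**Figure D4:**
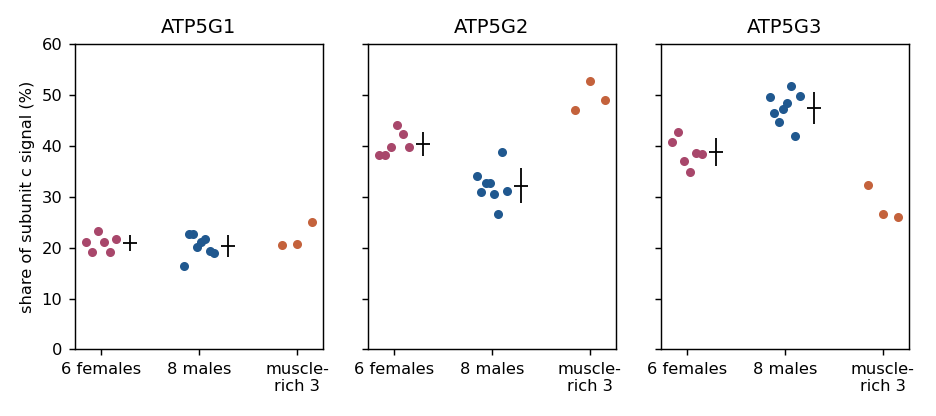
Share of the summed subunit c signal (percent) taken by ATP5G1, ATP5G2 and ATP5G3 in the other 6 females, the other 8 males and the muscle-rich 3; each point is a library and the bars give mean and SD of the females and males. ATP5G2 averages 40.4% in females and 32.2% in males, and ATP5G3 38.8% and 47.4%.

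The series compares the sexes, and the level of each member was tested over the 17 libraries with limma on log2(signal + 1), adjusted over all 9414 genes. Of the 19 members whole in both tables, 0 passed an adjusted p of 0.05, and 1, SDHC, had an unadjusted p under 0.05; 13.6% of all genes passed. The female-minus-male difference of SDHC was -0.64 ± 0.22 (SE) and its adjusted p 0.0617 by limma. ATP5A1 differed by -0.25 ± 0.32 (adjusted p = 0.645) and COX8A by 0.01 ± 0.22 (adjusted p = 0.981) by the same test. The median of the members was -0.05 and that of all genes -0.28. The muscle-rich libraries made up 2 of the 8 females and 1 of the 9 males, so these standard errors hold the spread described above.

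Without the 3 muscle-rich libraries, 8 of the 19 members were called and all 8 were lower in females, which is 6 of complex V, SDHC and COX5A. The same fit called 36.3% of all genes lower in females, so the count of members is close to the background. The members' median difference was -0.27 and that of all genes -0.35.

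ATP5F1 had the widest difference. Its signal was 40.4, 59.7 and 73.1 as the lowest, median and highest of the 6 females and 90.8, 113 and 156 in the 8 males, and the sexes did not overlap. The difference was -1.03 ± 0.16 (SE, limma adjusted p = 1.96e-04). A further locus with the product name of this subunit was listed and not used, as for ATP5H, ATP5J2, ATP5L and ATP5O. The part of reads shared between such copies was not tested. SDHC was 42.3, 51.3 and 79.9 in females and 78.9, 105 and 136 in males, with female 7 above the lowest male. It differed by -0.92 ± 0.16 (limma adjusted p = 5.22e-04). ATP5C1 was 40.4 to 87.9 in females and 78.0 to 136 in males, a difference of -0.68 ± 0.17 (limma adjusted p = 0.00536). ATP5A1 was 198 to 346 in females and 323 to 495 in males, a difference of -0.62 ± 0.16 (limma adjusted p = 0.00563). COX5A, a subunit on the matrix side of complex IV, was 36.6 to 71.9 in females and 55.2 to 96.4 in males and differed by -0.46 ± 0.15 (limma adjusted p = 0.0278). When each of the 14 libraries was left out in turn, COX5A was called in 9 of 14 fits, with an adjusted p of up to 0.0690 without female 6; the other calls named here held in all 14 fits.

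Most of these calls depended on the scale between libraries. With medians of all genes set equal across the 14 libraries, 4 of the 19 members were called. ATP5F1 (-0.62 ± 0.11, limma adjusted p = 0.00123) and SDHC (-0.51 ± 0.13, limma adjusted p = 0.00994) were still lower in females, beside 14.8% of all genes lower. ATP5G2 (0.44 ± 0.11, limma adjusted p = 0.00927) and ATP5D (0.45 ± 0.16, limma adjusted p = 0.0413) were higher, beside 15.2% of all genes higher; on the deposited scale each differed by 0.04. ATP5C1, ATP5A1 and COX5A no longer passed. Within the name series and on the deposited scale, 3 of the 19 members were called against series A males, beside 19.8% of all genes lower in females, and 5 against the 3 series B males, beside 30.8%. All of these members were lower in females, and both counts are below the background. With age as a term 0 members and 1 gene in all were called, both with and without the muscle-rich libraries.

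**Figure D5:**
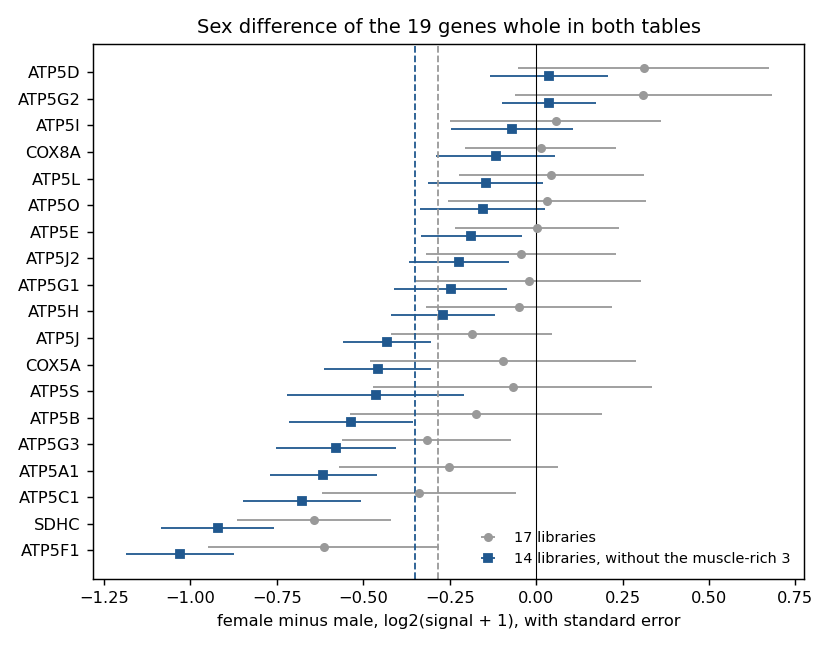
Female-minus-male difference in log2(signal + 1) of the 19 members whole in both tables, with standard errors, over 17 libraries (grey circles) and over the 14 that are not muscle-rich (blue squares); dashed lines are the medians of all genes, -0.28 and -0.35. ATP5F1 and SDHC lie farthest to the left, at -1.03 and -0.92 over 14 libraries.

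Proximal tubule markers were lower in females in the same 14 libraries, and markers of other nephron segments less often. The summed signal of the 15 proximal tubule markers was 1020 to 5824 in females and 5456 to 11883 in males, with none of the 15 at 0 in all 14 libraries, and 14 of the 15 were lower in females by limma, or 9 of the 15 with equal medians. That of 5 thick limb markers was 1825 to 11548 and 2869 to 10274, and 2 of the 5 were called lower, or 1 with equal medians. Of the other segments, 1 of 2 distal convoluted tubule, 0 of 5 principal cell and 0 of 6 intercalated cell markers were called lower. With equal medians these 3 counts were 0. Mitochondrial DNA took 26.6% to 49.99% of the signal in these 6 females and 21.1% to 35.5% in the 8 males. The part of these values in the subunit differences was not tested. Of the genes around the chain, beside 36.3% of all genes, 8 of 11 in the tricarboxylic acid cycle were called lower in females, with DLD, the E3 component of several dehydrogenase complexes, at -1.67 ± 0.22 (limma adjusted p = 1.01e-04). Of electron carriers and exchangers 9 of 12 were lower, led by ETFA, which delivers electrons from fatty acid oxidation, at -1.13 ± 0.15 (limma adjusted p = 1.02e-04). Of regulators 6 of 16 were lower, among them TFAM, which packages and transcribes mitochondrial DNA (-1.06 ± 0.18, limma adjusted p = 4.38e-04). Of assembly factors 3 of 14 were lower, with the ATP synthase factor ATPAF1 at -1.04 ± 0.15 (limma adjusted p = 1.35e-04). Of 8 subunits encoded by mitochondrial DNA and held for both sexes 1 was lower, ATP8 (-0.83 ± 0.28, limma adjusted p = 0.0282). The counts of regulators and assembly factors are near or below that background. With equal medians, which called 14.8% of all genes lower and 15.2% higher, the counts were 6, 3, 4, 3 and 0 lower, and 4 assembly factors and ND3 were higher.

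Among the 6 females that were not muscle-rich, the subunits varied together by library. Female 3 had the highest signal for 47 of the 58 members that met the minimum and for 42.6% of all genes. Female 5 was the lowest for 26 of the 58 and female 6 for another 26, beside 25.3% and 35.8% of all genes. Female 3 also had the lowest mean level of the proximal tubule markers in this group, 3.29 on the log2 scale against 6.33 to 7.75 in the other 5, and the highest of the thick limb markers, 7.78 against 5.90 to 7.23. The part of these markers in the order of the females was not tested. In the 8 males, male 7 was the highest for 15 of the 19 members and for 29.1% of all genes. The SD of log2(signal + 1) over the 6 females had a median of 0.26 for complex I and 0.31 for complex V, against 0.34 for all genes. It was widest for SDHA (0.69), which ranged from 9.01 in female 6 to 35.4 in female 8, and for NDUFA3 (0.55), and narrow for NDUFA2 (0.13) and SDHB (0.20). Over the 14 libraries it ran in complex V from 0.22 for ATP5G2 to 0.60 for ATP5F1, and was 0.36 for COX5A and 0.31 for COX8A.

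Taken relative to the gene median of each library, the mean level of complex V had a Pearson correlation of -0.86 and a Spearman correlation of -0.20 with the proximal tubule markers over the 6 females, and of 0.27 and -0.05 over the 8 males. With the thick limb markers they were 0.70 and 0.49 over the females and -0.05 and -0.05 over the males. With the subunits encoded by mitochondrial DNA they were -0.83 and -0.71, and 0.12 and 0.07. These values are descriptions over few libraries that share scale and depth. Female 3 stood apart among the 6 females, with proximal tubule markers at 3.29 against 6.33 to 7.75. Its mean log2 level of complex V was 6.20, against 5.49 to 5.78. The part of this library in the correlations was not tested.

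The authors' deposited module colours set most member transcripts together. In the females 74 of 85 (87.1%) were in the blue module, beside 41.7% of all transcripts. In the males 25 of the 34 held (73.5%) were in turquoise, beside 28.5% of all those held. All 25 were transcripts of ATP5 genes, COX5A or COX8A. The only NDUF transcripts held were minor ones of 5 genes, and none of these was in turquoise. The main NDUF transcripts were not held, so the male module of complex I could not be read. The table of the males ended part-way through a module, so both shares depend on which transcripts were held. The colours stood beside the values of all libraries of a sex, the muscle-rich ones included, and the part of those libraries in the colours was not tested.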

How the data were processed

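RNA of kidney cortex biopsies was sequenced from KAPA stranded mRNA libraries, per the labels' protocols. The authors deposited 1 table per sex with signal per transcript and library and a module colour, per the file headers. Partek is named in the submitters' processing notes; the aligner, the scaling and the build were not stated in the sources used here, nor were read totals, so depth is unknown. The lowest deposited value was 1, which was subtracted as an offset. The male table ended within a row after 17119 complete rows, all among the 26644 of the female table; the rest was not analysed here, and 7 rows without a gene name were left out. Transcripts were summed per gene over those in both tables (9818 genes) or, for females alone, over the female table. Over transcripts in both tables the signal totals were 255529 to 659319 per library, and mitochondrial DNA gave 17.6% to 50.0% of it.

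The sexes were compared with limma 3.58.1 in R 4.3.3 using log2(signal + 1) and limma's trend option, for genes reaching a signal of 1 in 8 or more libraries, at a Benjamini-Hochberg adjusted p of 0.05; log2 differences understate the change of low genes. The step was tested on simulated data. Shares were compared by exact permutation in Python 3.11.15 with scipy 1.17.1. Transcript shares used libraries with a gene signal of at least 10. Genes were named by rule: tissue paralogues, per complex the called members of smallest p, those of highest and lowest ratio and SD, those with a ratio over 4, and up to 3 genes per other list; COX7A2 was also described after its values were seen. Members and lists were chosen with earlier results of these data known. Each animal gave 1 library, so p-values measure the spread between animals. Alternatives covered scaling, pseudocount, filter, trend, age, name series and left-out libraries. Promoter motifs were not analysed here, as no sequences were at hand. One result is not reported here.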

Additional observations from a re-analysis of the deposited data

Results flagged for a closer look

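In 54 sets of values (complex means, named genes, isoform and transcript shares, per sex), 7 held a library whose gap to its nearest neighbour was wide for the group's range. For independent sets, chance gives such a gap in about 5%. These sets share libraries and genes, so the count of 7 cannot be read against that figure. Male 6, which its muscle genes had already set apart, accounted for 5 of the 7. It had the highest mean log2 level of complex V among the males, 7.23 against 6.46 for the next, and the highest log2 level of COX5A (7.80 against 6.61). It had the lowest share of ATP5G3 among the subunit c genes, 25.9% against 41.8%, and the lowest share of ATP5C1 variant X1, 3.48% against 93.7%. Its share of ATP5D variant X1 was the highest, 87.4% against 79.1%.

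Female 6, which is not muscle-rich, accounted for the other 2. Its variant X1 of NDUFV2 took 25.8% of the gene's signal, where the other 7 females had at least 99.5%. Its variant X1 of NDUFA9 took 64.0%, where the others had at least 96.8%. In the tables held for both sexes, this library was listed at 0 for 670 transcripts, against 121 to 216 in the other 5 females that are not muscle-rich.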

How the results depend on the processing

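No paired analysis was possible because the labels give the sexes no shared replicate numbers. Over all 17 libraries the members called stayed at 0 under the other scalings, pseudocounts, filters, trend, age and single name series. Leaving out 1 library gave 0 to 2 members (1 without female 1, 2 without female 2), 658 to 2337 genes, a members' median relative to all genes of 0.05 to 0.42 and a complex V median of 0.06 to 0.42, against 0.24 for both in the full set. Genes called were 837 without female 8, 828 without male 5, 680 without male 7, 658 without male 9 and 2337 without male 6.

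Genes called were 1276, and 454 with equal medians (183 higher in females, 271 lower), 358 with upper quartile scaling (115 higher, 243 lower), 770 with a minimum of 10, 1 with age as a term, 711 against series A and 1 against series B. With age as a term the members' median was -1.47 and that of complex V -1.47. Without the muscle-rich libraries 3631 genes and 8 members were called, with equal medians 2827 and 4, against series A 1931 and 3, against series B 3014 and 5, and with age as a term 1 gene. Leaving out 1 of these 14 gave 3087 to 4010 genes and 6 to 8 members.

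Some differences that were not called over 17 libraries changed sign. COX5A was 0.26 with equal medians, 0.25 with upper quartiles, 0.16 against series A, and positive, up to 0.0852, without female 5, female 6 or male 6. ATP5A1 was 0.1004 and 0.0940, and ATP5C1 0.0149 and 0.00466, with equal medians and upper quartiles. COX8A was -0.84 with age, -0.24 against series B and -0.113 to 0.103 without single libraries (negative without female 1, 2 or 3 or male 1, 4 or 9). Without the muscle-rich libraries it was -0.12, with age -0.35, against series B -0.32 and without further single libraries -0.03 to -0.21, where COX5A was -0.554 to -0.363.

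For the muscle-rich libraries, upper quartile scaling gave 1.002 for complex I in female 1, and a pseudocount of 10 gave 1.05 for complex IV in female 2, 1.24 for complex V in male 6 and 0.11 for NDUFB8 in female 1. Scaling to the nuclear total, chosen after seeing the data, gave -0.0757 and -0.0125 for complex I in females 1 and 2, -0.0307 and -0.0984 for II, 0.00100 and 0.346 for III, -0.92 and -0.66 for IV, -0.49 and -0.32 for V, 0.35 for V in male 6 (genes in both tables), and -1.41 for NDUFB8 in female 2. Over genes in both tables complex V was -0.00427 and 0.141 in females 1 and 2. The cause was not tested.

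The sex difference of ATP5G1 was -0.0608 points over 17 libraries and -0.0539 to 0.874 without single libraries; ATP5G2 kept 7.37 to 9.12 and ATP5G3 -9.49 to -7.91, and against series B alone 8.13 and -9.05 did not pass. With a gene signal of at least 50, 2 genes showed a transcript exchange in place of 4. Series and left-out settings of the 14 libraries were added after seeing the data.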
